A study of Mus musculus with 12 samples.

Results

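The 80 cytosolic ribosomal protein genes of the mouse were described in mouse embryonic stem cells (mESCs) by their newly made and total RNA. They were chosen by name alone, as protein-coding genes called Rpl, Rps or Rplp followed by digits with an optional letter, l or x, after ribosomal protein pseudogenes and S6 kinase genes had been left out. They comprise 49 genes of the large subunit and 31 of the small subunit, among 21503 protein-coding genes with values and 71565 features in all. mESCs of the male line DTCM23/49 XY, which are pluripotent cells of the early embryo, were grown in serum and LIF and received 200 µM 4-thiouridine (4sU), a uridine analog that cells take up and incorporate into nascent transcripts. After 15, 30 or 60 min, biotinylated 4sU RNA (labeled RNA) was pulled down from the RNA, and labeled and total RNA were each sequenced in 2 replicates, giving 6 labeled and 6 total RNA libraries. All cells had received 4sU, those of the total RNA included, and both replicates came from a single culture that was divided and passaged apart, so that p-values measure the spread between these samples.

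Most of these proteins are present once in every ribosome, and their mRNAs are therefore made in large and matched amounts. Their genes are short, carry small introns that often hold small nucleolar RNA (snoRNA) genes, and start transcription within a run of pyrimidines. The resulting 5′ terminal oligopyrimidine (TOP) of the mRNA places its translation under control of the mTOR pathway. Newly made transcripts still hold introns, whereas most total mRNA has been spliced, so that intronic signal in the labeled and the total fraction bears on RNA processing.

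The sequences around the transcription starts of 6 genes are shown because they carry this run or lack it and include genes at both ends of the differences described here. Windows of 30 bases, of which 15 lie before the start, were taken from RefSeq promoters on GRCm38.p6, in which 59 of the 80 genes were found. Capitals mark the longest run of C or T where it reached 8 bases. Rpl7a lies at chr2:26910792-26910821 on the plus strand, Rps10 at chr17:27635230-27635259 on the minus strand, Rpl35a at chr16:33056467-33056496 on the plus strand and Rpl28 at chr7:4792950-4792979 on the plus strand. Rpl10 lies at chrX:74270801-74270830 on the plus strand and Rps3 at chr7:99483695-99483724 on the minus strand, and neither held such a run in this window.
Rpl7a: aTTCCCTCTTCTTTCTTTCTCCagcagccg
Rps10: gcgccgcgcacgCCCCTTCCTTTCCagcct
Rpl35a: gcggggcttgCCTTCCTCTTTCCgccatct
Rpl28: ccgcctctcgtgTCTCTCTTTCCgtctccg
Rpl10: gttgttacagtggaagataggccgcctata
Rps3: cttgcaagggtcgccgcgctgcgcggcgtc
A run of at least 8 bases, each C or T as read in the direction of the transcript, was found in 27 of 71 windows of ribosomal protein genes (38%), against 3943 of 32851 windows of all genes (12%). Some genes have several annotated starts, and Rpl35a held the run at the second of its 3 starts. The median log2 difference between labeled and total RNA over introns was 1.48 in the 26 genes with a run and 1.37 in 31 genes without, and over exons it was 0.19 in 26 and 0.16 in 32. These are descriptions, and a window without a run says only that these letters are not in it.

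The deposited values are length-normalized abundances without a stated unit, and their sum was 19988830 to 19992902 in every library, so that the depth and counting error of each single library are unknown and only relative changes are seen. The 10 pluripotency markers, among them Pou5f1, Sox2 and Nanog, passed the filter on low values, with summed exonic levels of 21181 to 29726 in total RNA. Markers of primitive endoderm (0 of 4), mesoderm (0 of 2) and trophectoderm (0 of 2) did not pass it, and 1 of 7 fibroblast markers and the 1 neuroectoderm marker in the table did. In bulk RNA, fewer cells of a type and less RNA per cell cannot be told apart. Of each library's signal, introns made up 6.53% to 7.4% in total RNA and 6.98% to 14.8% in labeled RNA. The labeled libraries of replicate 1 at 15 min (14.8%) and 60 min (13.9%) stood apart from the rest, and results were therefore also computed without them.

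Ribosomal protein mRNAs were among the most abundant RNAs of these cells. In total RNA their exons held 5.41% ± 0.297 (SD, n = 6) of all exonic signal, and 30 of the 100 protein-coding genes with the highest exonic level were ribosomal protein genes. The median exonic level over the genes was 9617 in total RNA, against 169 over all protein-coding genes past the filter. Levels spanned from 5135 to 16896 in the middle 50% of the genes.

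Rpl10, a large subunit protein that joins the ribosome late in its assembly, had the highest exonic level in total RNA (53101 ± 9529, SD, n = 6), followed by Rpl5, which carries 5S rRNA into the large subunit (40477), and Rps18 of the small subunit head (38266). The values of Rpl10 ran from 42392 to 68146 in total RNA and overlapped those of Rpl5, which ran from 35928 to 45052, and of Rps18, which ran from 31016 to 44465. The 3 genes with the lowest levels were copies of other ribosomal protein genes. Rpl3l, the muscle copy of Rpl3, had a mean of 4.91 in total RNA and stayed under the filter, at 0.124% ± 0.123 of the level of Rpl3. Rpl10l, an intronless copy of Rpl10 known from the testis, reached 0.051% ± 0.0132 of Rpl10, and Rpl39l, the copy of the exit tunnel protein Rpl39, reached 1.46% ± 0.409 of Rpl39 (each SD, n = 6).

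The other copies were not low. Rps27l, a p53-responsive copy of the zinc finger protein gene Rps27, was at 90.2% ± 12.6 of Rps27 in total RNA and at 78.1% ± 15.6 in labeled RNA (SD, n = 6). Rpl36al was at 58.4% ± 6.86 of Rpl36a in total RNA and at 52% ± 6.02 in labeled RNA. Copies share sequence with their parent genes and with many pseudogenes, so that the division of reads among them is uncertain, and so is that of the X-linked Rps4x (13487 in total RNA).

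Over exons, the genes hardly differed between labeled and total RNA. Of the 79 genes past the filter, 6 were higher and 2 lower in labeled RNA (limma, adjusted p under 0.05), against 6.33% of 25276 features higher and 9.5% lower. The share that was higher (7.59%) was near the background, and the share that was lower was below it. The median log2 difference of the 79 genes was 0.12, against -0.01 over all features and -0.07 over protein-coding genes, and single genes ran from -0.49 to 0.51. Under the other scalings the median was 0.09 to 0.17 and thus kept its sign, whereas the counts were 0 higher and 0 lower with median ratio scaling (7.03% and 13.5% of all features) and 13 higher and 2 lower with exonic total scaling (7% and 7.09%). All 8 calls fell on the large subunit, and in the small subunit 0 of 31 genes passed (limma). At an unadjusted p under 0.05 (limma) there were 14 of 48 genes of the large and 8 of 31 of the small subunit. The median log2 differences of the large and small subunit were 0.15 and 0.10, and the difference between the subunits was not tested.

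The 6 genes that were higher were Rpl35a, Rpl26, Rpl36, Rpl12, Rpl27a and Rpl9, each with a higher value in labeled RNA in 6 of 6 library pairs. For Rpl35a, a large subunit protein gene that is mutated in some Diamond-Blackfan anemia, the exonic level ran from 12159 through a median of 13942 to 19877 in labeled RNA, and from 9710 through 10579 to 11755 in total RNA. The groups did not overlap, and the log2 difference was 0.46 ± 0.12 (SE, limma adjusted p = 0.0233). With 1 library left out in turn, the adjusted p of Rpl35a was 0.00917 to 0.0666 and passed the threshold in 7 of 12 cases. Rpl36, which had a log2 difference of 0.40 ± 0.10 (limma adjusted p = 0.02), passed in 10 of 12 cases. Rpl9, at 0.30 ± 0.09 (limma adjusted p = 0.0426), passed in 3 of 12 cases, with an adjusted p of up to 0.111.

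Rpl28 of the large subunit was among the 2 genes that were lower. Its exonic level ran from 2709 through 3903 to 4821 in labeled RNA and from 4312 through 5432 to 6197 in total RNA. The groups overlapped, labeled RNA was lower in 6 of 6 pairs, and the log2 difference was -0.49 ± 0.14 (SE, limma adjusted p = 0.0369), with 3 of 12 cases past the threshold when 1 library was left out.

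The genes with the widest differences were not all called. Rpl39l had the highest log2 difference (0.51 ± 0.29, limma adjusted p = 0.248) from low levels of 79.8 to 188.9 in labeled and 68.3 to 182.7 in total RNA. Rps27a, which is made as a fusion with ubiquitin, had a log2 difference of 0.47 ± 0.17 (limma adjusted p = 0.0836), and its labeled values ran from 13907 through 15438 to 28198. Rps27 had a log2 difference of 0.44 ± 0.15 (limma adjusted p = 0.0667). At the lower end, Rps10, which is ubiquitinated when ribosomes collide, had -0.35 ± 0.21 (limma adjusted p = 0.26), and the groups overlapped.

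The counts over exons depended on the libraries. With the pairs of the same replicate number as a block, 3 genes were higher and 0 lower, as were 4.68% and 4.81% of all features. Without the labeled libraries of replicate 1 at 15 and 60 min, 14 were higher and 0 lower, as were 5.44% and 9.52% of all features. Leaving out single labeled libraries gave 6 higher and 0 lower (15 min, replicate 1), 6 and 1 (15 min, replicate 2), 1 and 1 (30 min, replicate 1), 2 and 0 (30 min, replicate 2), 14 and 2 (60 min, replicate 1), and 6 and 2 (60 min, replicate 2). Leaving out single total libraries gave 4 and 0 or 3 and 0 (15 min, replicates 1 and 2), 2 and 2 or 1 and 0 (30 min), and 2 and 0 or 6 and 0 (60 min). In these 12 fits 3.46% to 9.5% of all features were higher and 5.51% to 12.9% lower. All features were fewest, at 3.46% to 3.87% higher, in 4 fits that gave 1 to 4 genes higher, whereas without the labeled library of replicate 1 at 60 min 6.41% of them were higher beside the 14 genes.

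**Figure D1:**
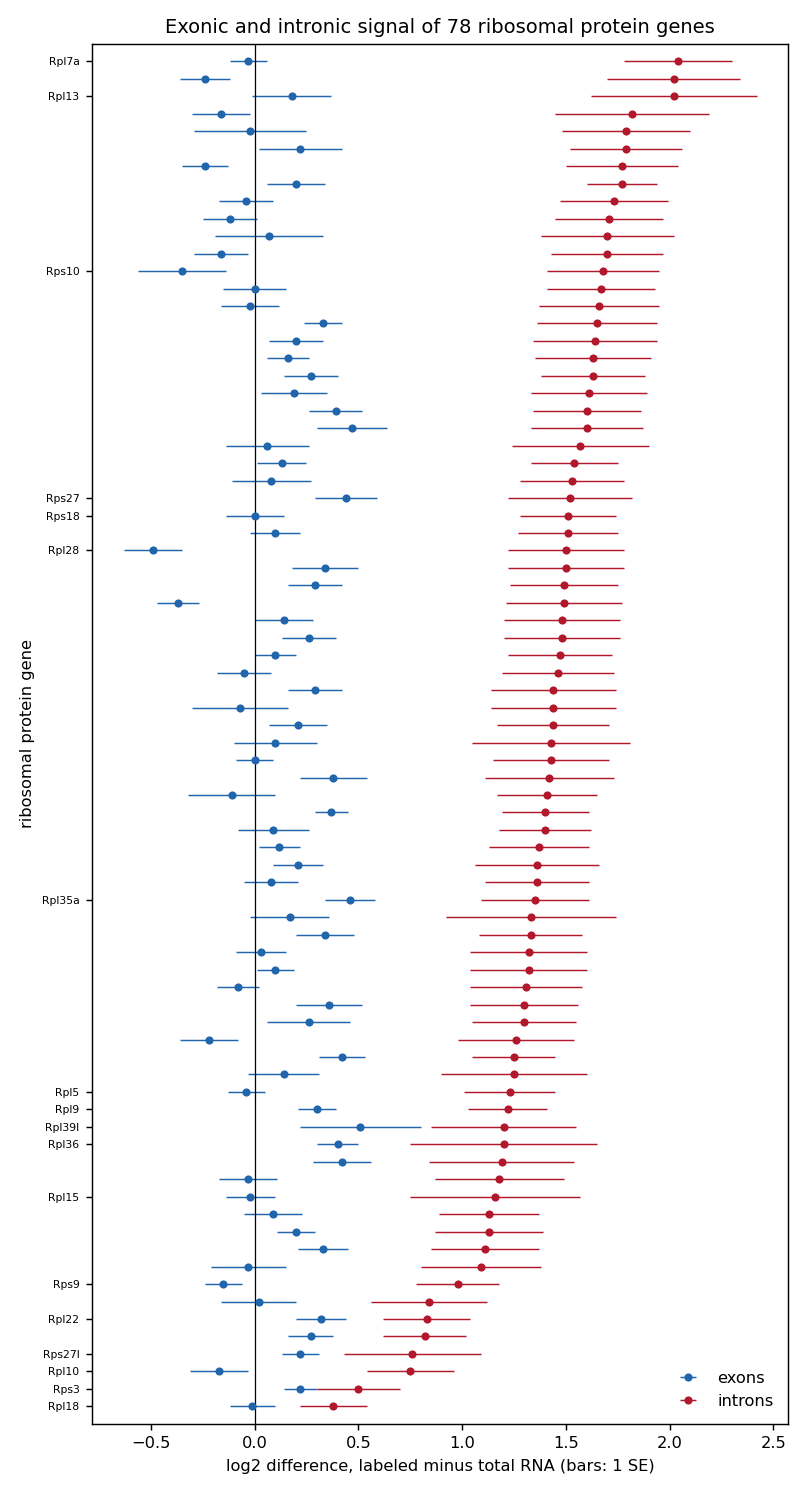
Log2 difference between labeled and total RNA (horizontal axis) of the 78 ribosomal protein genes past both filters (vertical axis, ordered by the intronic difference, with names for some genes the text describes), over exons in blue and introns in red, with bars of 1 SE from limma. Exonic differences lie on both sides of 0, from -0.49 to 0.51, whereas all 78 intronic differences are above 0, from 0.38 to 2.04.

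Over introns, nearly all ribosomal protein genes were higher in labeled RNA. Of the 78 genes past the intronic filter, 73 were higher and 0 lower (limma, adjusted p under 0.05), against 25.4% of 23949 features higher. The median log2 difference was 1.44, against 0.61 over all features and 0.65 over protein-coding genes, and the ratio of mean labeled to mean total value ran from 1.3 to 4.46 over 79 genes. Labeled and total values did not overlap in 57 of the 78 genes, with labeled RNA higher, as in 14.9% of all features. In 67 of the 79 genes with introns, labeled RNA was higher in 6 of 6 library pairs, and in the other 12 in 5 of 6.

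Restricting the genes to those with abundant introns gave like shares. Of the ribosomal protein genes with a mean intronic level of at least 20, 70 of 74 were higher, against 27.8% of 12586 features, and at a level of at least 50, 60 of 64 were, against 28.3% of 6203 features. Both subunits were alike in their counts, with 44 of 47 genes of the large and 29 of 31 of the small subunit higher and medians of 1.42 and 1.44.

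Rpl7a, a large subunit gene (ENSMUSG00000062647, chr2:26910685-26913312 in GRCm38) with 4 snoRNA genes inside, had the highest intronic difference. Its intronic level ran from 687 through 1251 to 1474 in labeled RNA and from 163 through 283 to 400 in total RNA, so that every labeled library was above every total library. The log2 difference was 2.04 ± 0.26 (SE, limma adjusted p = 0.00149), while over exons the same gene had -0.03 ± 0.09 (limma adjusted p = 0.834). Of the 6 windows shown above, that of Rpl7a held the longest pyrimidine run, at an annotated start that lies inside these gene coordinates. Whether the run bears on the intronic difference was not tested.

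Rpl13 was also among the highest. Rpl13 (chr8:123102350-123105244), which hosts Snord68, had intronic values from 67.2 through 121 to 284 in labeled and from 15.7 through 29.6 to 71.9 in total RNA, and the groups overlapped at a log2 difference of 2.02 ± 0.40 (limma adjusted p = 0.00378). Rps10 had intronic values from 171 through 281 to 418 in labeled and from 65.5 through 84.3 to 134 in total RNA, without overlap, at 1.68 ± 0.27 (limma adjusted p = 0.00175). Rpl7a, Rpl13 and Rps10 passed the threshold with any 1 library left out.

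Rps18 and Rpl5, which are among the 3 genes with the highest exonic level, were higher over introns. Rps18 had intronic values of 909.9 to 2414 in labeled and 470.1 to 570 in total RNA, at a log2 difference of 1.51 ± 0.23 (limma adjusted p = 0.00155). Rpl5 had 1202 to 2866 and 598 to 869, at 1.23 ± 0.22 (limma adjusted p = 0.00281). Rpl28, which was lower over exons, was higher over introns, at 1.5 ± 0.28 (limma adjusted p = 0.003).

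The 5 genes that did not pass were Rpl18, Rps3, Rps27l, Rpl15 and Rpl36. Rpl18 had the lowest difference, with intronic values from 1103 through 1321 to 1391 in labeled and from 842 through 982 to 1199 in total RNA, at 0.38 ± 0.16 (limma adjusted p = 0.0948). Rps3, a small subunit protein at the mRNA entry channel and the host of Snord15a and Snord15b, had 295.0 to 395.6 in labeled and 208 to 292.5 in total RNA, at 0.50 ± 0.20 (limma adjusted p = 0.0832). Its groups did not overlap. Rps27l had 0.76 ± 0.33 (limma adjusted p = 0.0977), Rpl15 had 1.16 ± 0.41 (limma adjusted p = 0.0533) and Rpl36 had 1.20 ± 0.45 (limma adjusted p = 0.0638). Rpl10 was among the lowest that passed, at 0.75 ± 0.21 (limma adjusted p = 0.0179), and lost the call with any 1 of 4 libraries left out, which were both labeled libraries at 30 min and the total libraries of replicate 1 at 15 and 30 min (limma adjusted p up to 0.056).

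**Figure D2:**
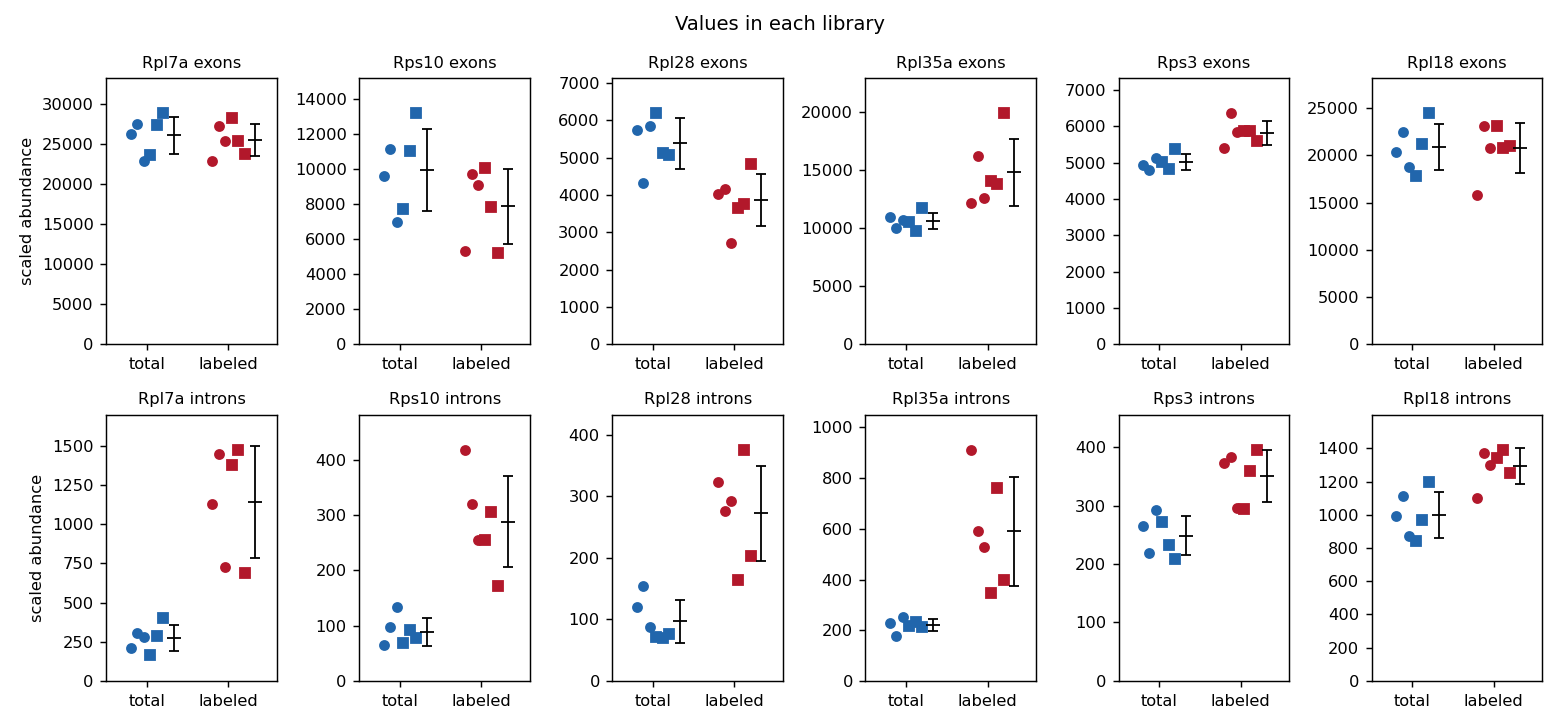
Exonic (upper row) and intronic (lower row) scaled abundance of 6 ribosomal protein genes in each total (blue) and labeled (red) RNA library, with circles for replicate 1, squares for replicate 2 and black bars for the mean and SD of 6 libraries. Labeled introns of Rpl7a, Rps10, Rpl28, Rpl35a and Rps3 are above all total introns, whereas those of Rpl18 overlap, and exons of Rpl28 are lower and those of Rpl35a higher in labeled RNA.

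Introns as a whole were higher in labeled RNA, and by how much differed between library pairs. The median log2 difference of the ribosomal protein genes over introns was 1.85 and 1.32 at 15 min, 1.44 and 1.52 at 30 min and 1.31 and 0.91 at 60 min in replicates 1 and 2. Over all features it was 1.33 and 0.06, then 0.33 and 0.61, then 1.28 and -0.02. The genes thus exceeded all features by 0.51 and 1.26, by 1.11 and 0.91 and by 0.04 and 0.93, and in replicate 1 at 60 min they moved like the rest. That library and replicate 1 at 15 min are those with the highest intronic share of the library.

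Without both libraries, 72 of 78 genes were higher and 0 lower, with a median of 1.26 against 0.19 over all features, of which 21.8% were higher and 5.67% lower (0.163% lower with all libraries). With each library's introns scaled to the same intronic total, 59 of 78 were higher and 0 lower, with a median of 0.93 against 0.12 over all features, of which 14.9% were higher and 2.53% lower. The genes' share of all intronic signal was 2.08% ± 0.402 in labeled and 1.2% ± 0.0925 in total RNA (SD, n = 6 each), running from 1.4% to 2.42% and from 1.09% to 1.32%, and the groups did not overlap.

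**Figure D3:**
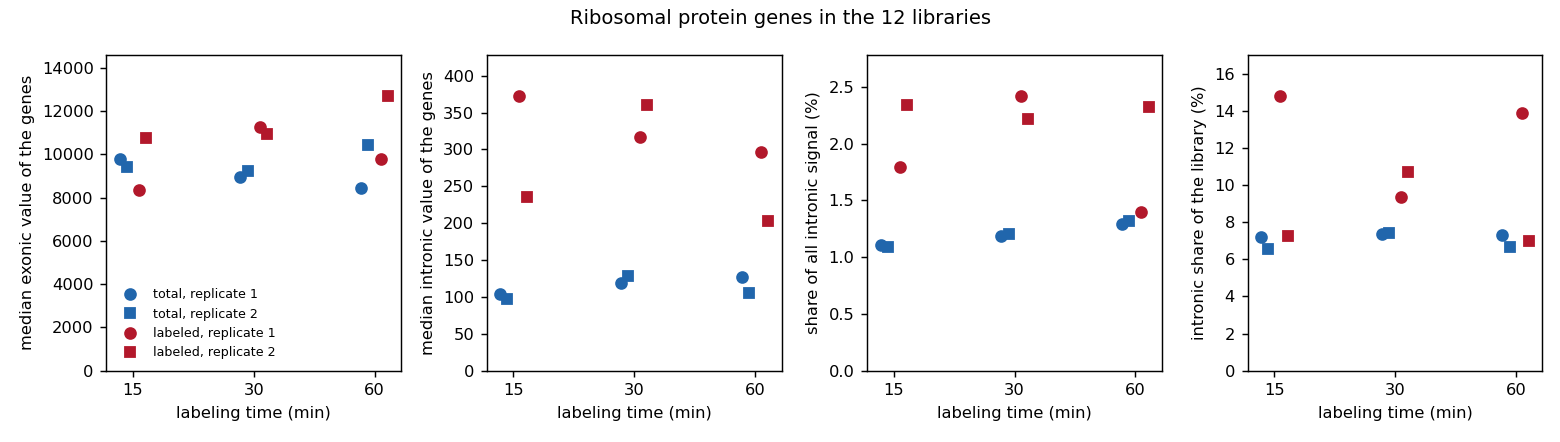
Median exonic and median intronic value of the ribosomal protein genes, their share of all intronic signal (%) and the intronic share of the whole library (%) by labeling time (min), for total (blue) and labeled (red) RNA, with circles for replicate 1 and squares for replicate 2. The median intronic value was 97.5 to 129 in total and 203 to 373 in labeled RNA, and the 2 red circles at 14.8% and 13.9% in the last panel are the labeled libraries of replicate 1 at 15 and 60 min.

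The ratio of intronic to exonic signal of the same gene needs no scaling between libraries. It was higher in labeled RNA in 53 of 78 genes (limma, adjusted p under 0.05), against 19.6% of 15818 features, with a median log2 difference of 1.27 against 0.65. Rpl7a (2.07 ± 0.35, limma adjusted p = 0.00555) and Rps10 (2.03 ± 0.41, limma adjusted p = 0.00796) were among the genes with the highest differences. Rps3 (0.28 ± 0.30, limma adjusted p = 0.473), Rpl18 (0.39 ± 0.29, limma adjusted p = 0.311) and Rpl22 (0.50 ± 0.34, limma adjusted p = 0.263) had the lowest. All 78 differences were above 0.

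The count of 53 genes depended on single libraries. It was 33 and 14 without the labeled library of replicate 1 or 2 at 30 min, 23 and 22 without that of total RNA at 15 min, 24 and 27 at 30 min, and 25 without the total library of replicate 2 at 60 min. The share of all features fell with it, to 11% and 6.35%, to 8.67% and 8.95%, to 9.02% and 9.48%, and to 8.12%. The count was 40 without both labeled libraries of high intronic share, with a median of 1.01 against 0.25 over all features, of which 12.4% were higher.

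In total RNA the intronic values of ribosomal protein genes were low beside their exonic values. Their intronic level was a median of 1.08% of the exonic level in total RNA and 3.03% in labeled RNA, against 16.9% and 31.6% over protein-coding genes, and 78 of 79 genes were below the protein-coding median in total RNA. The exception was the barely detected Rpl3l (65%). Rps27 had the lowest value (0.137%), and Rpl9 (8.01%), Rpl39l (6.6%) and Rps9 (6.06%) the highest below Rpl3l. The exonic values include transcripts annotated as retained introns, which held 23.9% of the genes' exonic signal in total RNA. Unspliced RNA can thus be counted as exonic, and these percentages may understate it. By how much was not tested.

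**Figure D4:**
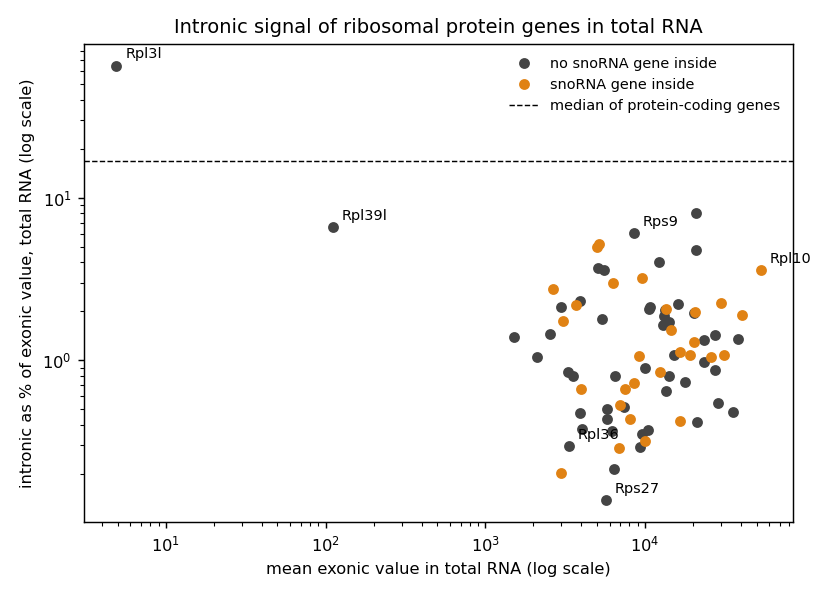
Intronic value as a percent of the exonic value (vertical axis, log scale) against the mean exonic value (horizontal axis, log scale) in total RNA for 79 ribosomal protein genes, with genes that hold a snoRNA gene in orange and the others in grey. The dashed line is the median of protein-coding genes (16.9%), and all genes but Rpl3l lie below it.

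A processing estimate was formed per gene as labeled exonic value per hour of labeling, divided by the total intronic value. The median over 78 genes was 214 per hour with quartiles of 131 and 498, against 13.7 per hour over 9693 protein-coding genes, a ratio of 15.6, and all 78 genes were above the protein-coding median. In each of the 6 library pairs all 78 genes were above it as well, at a median of 15 to 19.1 times. The absolute number fell with labeling time, from 414 through 184 to 98.7 per hour in these genes and from 25.3 through 10.6 to 5.71 in protein-coding genes, since each library has the same total while the time divides it. Because exons of these genes hardly differed between labeled and total RNA, the estimate nearly repeats the inverse of their intronic share of total RNA. In that share 78 of 79 genes were already below the protein-coding median. The estimate and its counts per library pair are therefore not a result separate from that share.

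Rps27 had the highest processing estimate, at 195 ± 55.3 times the protein-coding median of the same library pair (SD, n = 6), with Rpl36 at 109 ± 88.3 and Rps29 at 107 ± 45.0. All 3 rest on introns near the floor of the values, with mean total intronic levels of 7.80, 9.80 and 13.8, and deposited values start at 1.01. Rps9 (2.71 ± 0.489), Rpl9 (2.86 ± 0.549) and Rpl18 (3.75 ± 0.381) had the lowest estimates. Introns of these 3 genes had mean total levels of 517.8, 1664 and 997.6.

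**Figure D5:**
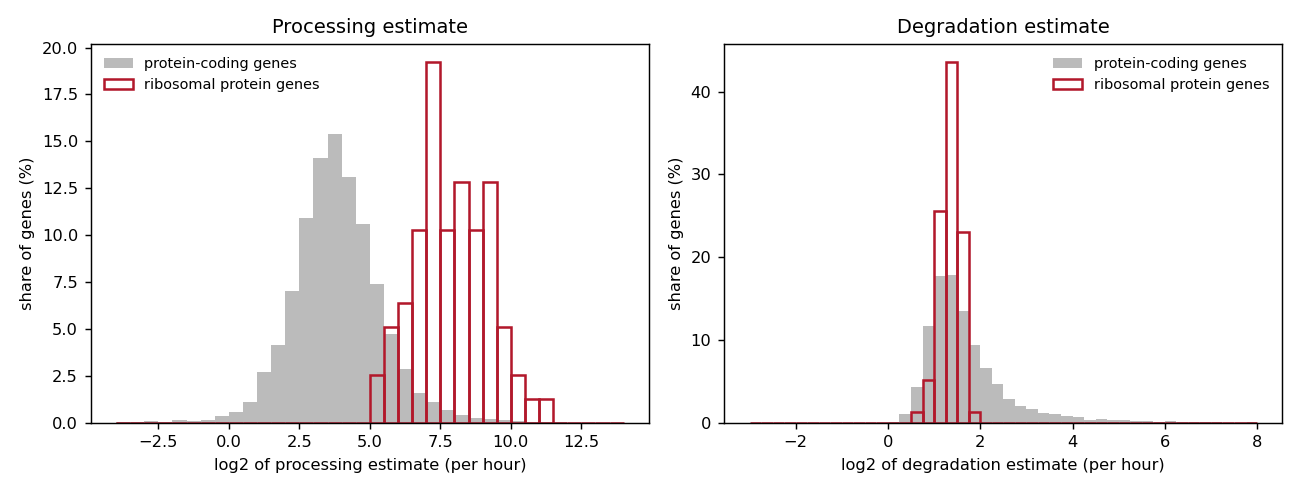
Share of genes (%) by the log2 of the processing estimate (left) and the degradation estimate (right), both per hour, for protein-coding genes (grey) and ribosomal protein genes (red outline). The processing estimates of the ribosomal protein genes lie to the right, at a median of 214 against 13.7 per hour, whereas the degradation estimates overlap, at 2.54 against 2.75 per hour.

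A degradation rate estimate was formed as labeled exonic value per hour of labeling, divided by total exonic minus total intronic value. It was a median of 2.54 per hour in the 78 genes, with quartiles of 2.34 and 2.82, against 2.75 per hour over 9335 protein-coding genes, a ratio of 0.923, and 24 of 78 genes were above the protein-coding median. The direction changed between library pairs, in which the median was 0.836 to 1.18 times the protein-coding one. The genes were close together, from 1.68 to 3.51 per hour. As for processing, the absolute number fell with labeling time, from 4.32 through 2.38 to 1.17 per hour in these genes. In protein-coding genes it fell from 4.87 through 2.29 to 1.22 per hour. Each library has the same total while the time divides it, so that these numbers do not give the lifetime of an mRNA. Rpl39l (1.52 ± 0.766), Rps27a (1.4 ± 0.759) and Rps27 (1.29 ± 0.524) had the highest estimates relative to the protein-coding median and Rpl28 (0.682 ± 0.266) and Rps10 (0.724 ± 0.225) were among the lowest (SD, n = 6), an order that rests on the same exonic values as the labeled to total difference.

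The difference between labeled and total exons did not change detectably with labeling time. The fit could miss such changes, since in simulated data it recovered 44 of 200 features with a log2 slope of 1 per doubling of labeling time. None of the 79 genes passed (limma, adjusted p under 0.05), as 0% of 25276 features did, and at an unadjusted p under 0.05 there were 2 of 79 genes and 307 features. The former were Rpl15, with a log2 slope of -0.34 per doubling of labeling time, and Rps27a, with 0.41 (limma adjusted p = 1 for both). The median slope of the 79 genes was 0.04.

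snoRNA genes lie inside 29 of the 80 genes, 55 in all. Introns of the 29 genes had a median total level of 187, against 93.1 in the genes without, with quartiles of 54 to 274 and 28 to 237. The groups were alike in the intronic log2 difference (1.42 and 1.44), in the genes called higher (28 of 29 and 45 of 49) and in the intronic percent of the exonic level (1.13% and 1.06%). Median processing estimates were 192 and 238 per hour. Relative to the protein-coding median of the same library pair the order was the opposite, at 17.7 and 16.2 times.

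Other genes overlap 18 of the ribosomal protein genes in the annotation, and since strand was not given for the counting, their reads cannot be told apart. Rpl18 overlaps Sphk2 on the opposite strand. The 18 genes had 16 of 18 introns higher and a median of 1.49, and the 62 without an overlap had 57 of 60 and 1.43. Transcripts annotated as retained introns held 23.9% of the genes' exonic signal in total RNA. In labeled RNA 10 of 106 such transcripts were higher and 0 lower (limma), against 6.21% higher among all 5251 retained intron transcripts. Other transcript types were higher as well, with 12 of 165 protein-coding transcripts (2.77% of all such transcripts) and 8 of 60 processed transcripts (4.71%). Of transcripts annotated for nonsense-mediated decay 0 of 8 were higher (2.51%). With protein-coding transcripts alone, the counts over exons were again 6 and 2.

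Other genes of the translation machinery were set beside them from lists drawn up with earlier results of these data known. Of 6 ribosome components outside the name rule, among them Rpsa and Fau, which is made as a fusion with a ubiquitin-like protein, 6 were higher over introns, with a median of 1.78, and 0 passed over exons (limma, 1 at an unadjusted p under 0.05). Over all features, 25.4% were higher over introns, and 6.33% were higher and 9.5% lower over exons. Fau had 2.04 (limma adjusted p = 0.00165) over introns and 0.11 ± 0.21 (limma adjusted p = 0.75) over exons.

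Translation factors and other TOP mRNAs differed in their exonic counts. Of 14 genes, 0 were higher and 7 lower over exons, with a median log2 difference of -0.31, and 7 were higher over introns. Of all features, 6.33% were higher and 9.5% lower over exons, and 25.4% were higher over introns. Pabpc1, the poly(A)-binding protein, had -0.87 ± 0.10 (limma adjusted p = 0.000828) over exons, whereas Npm1, a nucleolar chaperone, had 0.01 ± 0.19 (limma adjusted p = 0.975). Their median degradation estimate was 1.9 per hour and their median processing estimate 117 per hour. Whether they differ from ribosomal protein genes was not tested.

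Ribosome biogenesis factors had 1 of 32 genes higher, Nop56 of the box C/D snoRNP (0.45 ± 0.13, limma adjusted p = 0.0426), and 5 lower over exons, with a median of -0.25, and 12 of 30 higher over introns. Mitochondrial ribosomal protein genes, which encode the organelle's own ribosome, had 4 of 76 higher and 2 lower over exons, with a median of 0.16, and 43 of 70 higher over introns, with a median of 0.86 and a processing estimate of 25.6 per hour. Proteasome subunits had 0 of 37 higher and 5 lower over exons and 16 of 37 higher over introns, with a processing estimate of 49.3 per hour. The counts of these 3 lists stand beside 6.33% of all features higher and 9.5% lower over exons. Over introns 25.4% of all features were higher, and 29% of protein-coding genes. Whether the lists differ from these shares was not tested.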

How the data were processed

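Labeled and total RNA of mESCs were measured by single-end RNA-seq. The authors removed rRNA reads with STAR 2.5.0, aligned the remainder to exonic and intronic sequences and quantified them with RSEM. The submitters' processing notes name mm10. The deposited score of each transcript is a length-normalized abundance scaled to 19988830 to 19992902 per library, and values of 1 or less are missing, the smallest being 1.01. The depth of each single library is therefore unknown.

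Transcripts were matched by identifier to GENCODE M1 (83847 of 111672 Ensembl transcripts, holding 73.85% of exonic signal) and summed per gene, with missing values as 0. Unmatched transcripts were kept as features of their own. Genes with a mean of at least 20 (exons) or 5 (introns) were tested on log2(value + 1) with limma 3.58.1 in R 4.3.3, with labeling time as covariate, a mean-variance trend, two-sided tests and Benjamini-Hochberg adjustment over all features. Differences on this scale are understated for low values. The labels give a biological replicate number and the growth protocol 2 biological replicates, the divided cultures. That labeled and total libraries of the same number and time share a culture was taken from this and is not stated for single libraries, and the replicate block and pair counts rest on it. Deviations of same-numbered libraries correlated at -0.0359, 0.0744 and -0.236 (15, 30 and 60 min), none of which shows such a pairing. Rates used ratios of values and were not tested. Named genes were the extremes of each measure, the copies with their parents and genes under a filter. Rpl12, Rpl26, Rpl27a and Rpl15 were named outside this rule, after their values were seen. Some genes that the rule selects are not reported here. Members and lists were chosen with earlier results of these data known. The fits were tested on simulated data. Alternatives were another pseudocount, scaling, filter, transcript rows, the replicate block and leaving out libraries. Figures were drawn with matplotlib 3.10.9 in Python 3.11.15.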

Additional observations from a re-analysis of the deposited data

Results flagged for a closer look

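In 122 groups of 6 libraries of named genes, 9 held a library far from the other 5 by Dixon's criterion, where chance alone gives about 1 in 20, or 6.1. The labeled library of replicate 2 at 60 min was the distant one in 5 of them. Its exonic levels were 32641 for Rpl36a (others 19577 to 22506), 57444 for Rps18 (31856 to 36674), 28198 for Rps27a (13907 to 16950) and 11404 for Rps29 (5369 to 7535), and its intronic level of Rps4x was 97.3 (181 to 231). The labeled library of replicate 1 at 15 min was distant in 3, with exonic levels of 15812 for Rpl18 (20787 to 23154) and 7130 for Rpl39 (8981 to 10039) and an intronic level of 284 for Rpl13 (67.2 to 148). The labeled library of replicate 1 at 60 min had an intronic level of 2481 for Rpl9 (3893 to 4717). The causes were not tested.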

How the results depend on the processing

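The intronic count of 73 genes was 56 to 76 under every alternative run, among them the replicate block (75) and transcript rows (76 genes with a called transcript). The share of all features that was higher moved as well. It was 10.5% without replicate 1 (56 genes) and 46.2% without the labeled library of replicate 2 at 15 min (75 genes). By transcript rows it was 24.9% of all rows tested, a share of rows that cannot be set against the count of 76 genes. With intronic total scaling the median over introns was 0.93. Over exons, the 6 higher and 2 lower genes became 13 and 2 with exonic total scaling, 0 and 0 with median ratio scaling and 3 and 0 with the replicate block. They became 2 and 0 without a filter (3.71% and 3.31% of all features). By transcript rows they were 14 and 2 genes with a called transcript, while 5.24% and 12.1% of all rows tested were called. A gene has up to 11 transcripts and thus several chances of a call, so that these counts and shares are not comparable. Without both labeled libraries of high intronic share, a setting chosen after seeing the data, they were 14 and 0. Leaving out libraries or a replicate gave 0 to 14 higher and 0 to 2 lower. With either replicate left out, all features gave 0 or 5 higher calls. In simulated data, the exonic fit of 6 libraries recovered 0 of 200 features with a log2 difference of 2. The intronic fit of 6 simulated libraries also recovered 0 of 200, although intronic fits of 6 libraries did make calls in the data. The simulation therefore does not measure how many changes these fits can find. The ratio of introns to exons had 8 to 66 genes higher with libraries or a replicate left out, and the share of all features moved with it. That share was 2.98% without replicate 1 (8 genes) and 31% without the labeled library of replicate 2 at 60 min (66 genes). It was 53.4% without the labeled library of replicate 2 at 15 min (65 genes). The block changed no other count by over 1.5 times. Crossing the pairs at 60 min, also chosen after seeing the data, gave 6 and 2 over exons, 75 over introns and 52 for the ratio. The processing rate ratio of 15.6 was 17.6 at 30 min alone, 17.3 at 60 min alone, 12.1 by transcript rows, 19.8 without a filter, 17.4 for genes without snoRNA genes and, added after seeing the data, 12.5 with protein-coding transcripts alone, and 15.2 to 18.4 with a replicate left out. The degradation rate ratio of 0.923 was 0.872 to 1.06. Without a filter the exonic median of the genes was 0.11 against 0.16 over all features, so that they no longer lay above the rest. The causes of these changes were not tested. Of 2278 values of single genes under alternatives, 173 lost and 47 gained a call, and 0 reversed. The depth of single libraries is unknown, and genes near the lowest deposited value, such as Rps27 and Rpl36 over introns, are limited by it.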
